A study of Rattus norvegicus with 6 samples.

Results

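The 10 genes described here encode transcription factors of the immediate early response: the AP-1 subunits Fos, Fosl1, Jun, Junb and Jund, the related factor Atf3, the zinc finger factors Egr1 and Egr2, and the Krüppel-like factors Klf2 and Klf4. They were chosen by gene symbol, as every probe set whose platform symbol was one of the 10 names. All 10 genes were measured, by 19 probe sets, out of 10411 genes and 15866 probe sets in the whole series. Where a gene had several probe sets, its main probe set was the one with the highest mean over the 6 arrays, and the others served as a check.

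Gene expression was measured on 6 Affymetrix arrays of intact cerebral arteries of Dahl rats, which were bred for how their blood pressure responds to salt. The 3 high salt samples came from rats given 8% NaCl chow from 7 weeks of age, and the 3 low salt samples from rats kept on 0.4% NaCl chow from the same age. Time on high salt chow is 11 weeks by the sample characteristics but 12 weeks by the treatment text, and for low salt chow both give 12 weeks. Each array held RNA pooled from 3 rats, so that each diet stands for 9 rats and the spread within a diet is a spread between pools. All rats were killed with pentobarbital, and the arteries were dissected cold and then either frozen or put in a preservative. The labels do not say which sample was frozen and which was preserved. All values are the deposited log2 values, 1 per probe set and array, and each difference is the high salt mean less the low salt mean, in log2 units.

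Immediate early genes are switched on within minutes of a stimulus, without new protein synthesis, through kinases that act on factors already bound at their promoters. Fos and Jun proteins pair through a leucine zipper and bind DNA as AP-1. The Egr proteins bind GC-rich sites through zinc fingers. In vessels these genes respond to stretch, growth factors, vasoconstrictors and injury. Klf2 and Klf4 are known in endothelium as factors induced by shear stress, and Klf4 also in smooth muscle as a factor that lowers contractile genes. Their RNAs also respond to death, dissection and handling of tissue, since they appear so quickly.

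Promoter sequences from RefSeq (assembly GRCr8) were matched for 6 of the 10 genes: Fosl1, Junb, Jund, Egr1, Egr2 and Klf4. Those of Egr2, Egr1 and Junb are shown. Egr2 and Junb had no overlap between diets, while Egr1 did overlap. Klf4 had no overlap either, but its promoter held none of the motifs searched and is not shown. The 250 bases before the annotated start were searched on both strands for 5 motifs. These were TGACTCA, the classical AP-1 element, TGACGTCA, the cyclic AMP element, GCGGGGGCG, an Egr element, the CCAAT box, and the CArG box, which serum response factor binds. Capitals mark the CArG boxes and CCAAT, read on either strand; none of the capitalised stretches overlap. The Egr2 window lies at chr20:21054442-21054691 on the minus strand, Egr1 at chr18:26736828-26737077 on the plus strand and Junb at chr19:40080876-40081125 on the plus strand.
Egr2: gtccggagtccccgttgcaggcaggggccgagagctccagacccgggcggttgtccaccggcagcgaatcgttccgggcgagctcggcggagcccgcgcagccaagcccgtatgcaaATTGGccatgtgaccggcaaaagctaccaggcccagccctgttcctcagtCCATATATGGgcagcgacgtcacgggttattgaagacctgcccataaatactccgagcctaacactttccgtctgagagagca
Egr1: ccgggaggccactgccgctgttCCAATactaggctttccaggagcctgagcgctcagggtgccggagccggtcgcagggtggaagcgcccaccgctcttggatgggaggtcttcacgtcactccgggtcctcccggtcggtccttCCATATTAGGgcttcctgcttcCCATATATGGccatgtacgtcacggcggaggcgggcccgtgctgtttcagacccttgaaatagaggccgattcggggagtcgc
Junb: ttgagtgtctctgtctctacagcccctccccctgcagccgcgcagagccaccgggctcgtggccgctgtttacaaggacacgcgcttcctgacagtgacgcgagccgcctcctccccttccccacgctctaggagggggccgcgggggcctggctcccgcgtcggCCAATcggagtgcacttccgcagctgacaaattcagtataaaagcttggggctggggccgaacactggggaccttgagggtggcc

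Egr1 held 2 CArG boxes, at 105 to 96 and 83 to 74 bases before the start, and Egr2 held 1, at 83 to 74 bases. A CArG box was found in 1.5% of the 33469 RefSeq promoter windows searched the same way. CCAAT was found in these 3 promoters and in that of Jund, and in 34% of all windows. Jund held the cyclic AMP element at 221 to 214 bases before the start, and 1.59% of all windows hold it. In the 6 promoters there were no matches to the AP-1 element (4.05% of all windows) or the Egr element (2.45%), and in those of Fosl1 and Klf4 none to any of the 5. A match is a run of letters and was not tested as a binding site. The windows depend on the annotated start, and that of Klf4 had 43.2% G and C, against 62% to 68.4% in the others. Whether transcription of Klf4 begins at that start was not tested.

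In the comparison of diets, Egr2, Junb and Klf4 lay higher on all 3 high salt arrays than on any low salt array, and Atf3 lay lower on all 3. Egr2 differed by 1.23 ± 0.40 (SE), Junb by 1.03 ± 0.26, Klf4 by 0.51 ± 0.15 and Atf3 by -0.25 ± 0.13. The other 6 overlapped between diets on their main probe sets. By limma with Benjamini-Hochberg adjustment over all 15866 probe sets, 0 of the 10 genes had an adjusted p below 0.05, against 0% of all probe sets, and the lowest adjusted p among the 10 was 0.803. At an unadjusted p below 0.05 there were 3 of 10 on the higher side, against 5.72% of all genes, and 0 of 10 on the lower side, against 0.711%. Arrays of the diets did not overlap for 3 of 10 genes on the higher side, against 8.64% of all genes, and for 1 of 10 on the lower side, against 3.32%. These backgrounds turned with the scaling. After median centring the counts at an unadjusted p below 0.05 were 3 of 10 higher, against 2.96% of all genes, and 1 of 10 lower (Atf3), against 2.55%. The counts with no overlap were then 3 of 10 higher, against 4.01%, and 1 of 10 lower, against 13.9%. After quantile normalization 2 of 10 had no overlap on the higher side, against 4.74%, and 2 of 10 on the lower side, against 7.66%. With 10 genes these shares rest on 1 to 3 genes each, and no set test was made. In whole arteries, fewer cells of a type and less RNA per cell cannot be told apart.

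**Figure D1:**
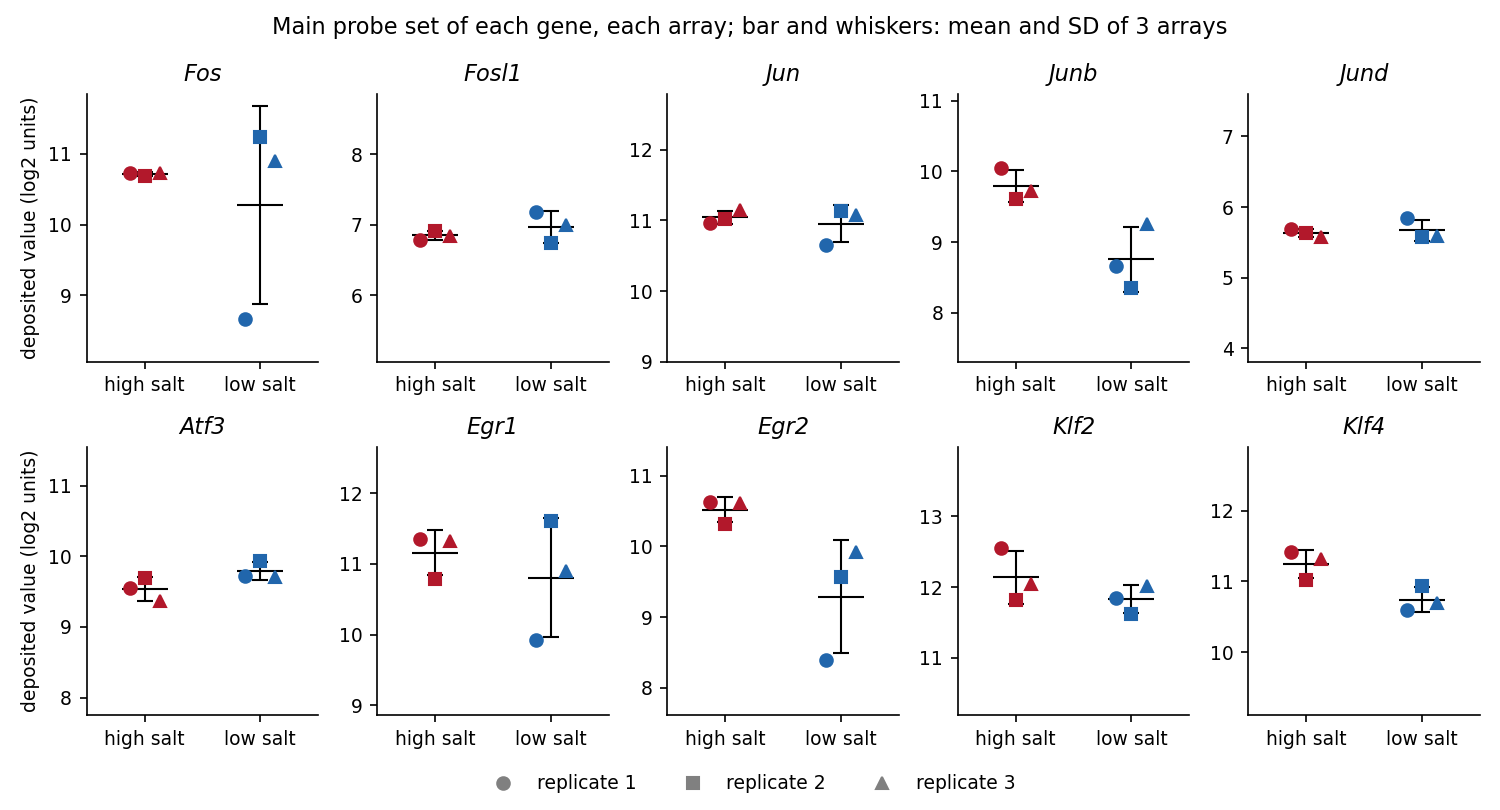
Deposited log2 value (y axis, log2 units) of the main probe set of each of the 10 genes on the 3 high salt arrays (red) and the 3 low salt arrays (blue), with the mean and SD of each diet in black; every panel spans the same number of log2 units. The diets do not overlap for Junb, Egr2, Klf4 and Atf3, and low salt replicate 1 lies far below the other arrays for Fos, Egr1 and Egr2.

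Fos, the partner of Jun in the classical AP-1 dimer, was at 10.73, 10.68 and 10.73 on the high salt arrays, against 8.67, 11.24 and 10.90 on the low salt arrays. The high salt arrays were nearly equal, while the low salt arrays lay on both sides of them, replicate 1 far below and replicates 2 and 3 above. Fos averaged 10.7 ± 0.03 on high salt and 10.3 ± 1.40 on low salt (SD, n = 3 each), a difference of 0.44 ± 0.67 (SE) with a 95% interval from -1.22 to 2.10. Without low salt replicate 1 the difference was -0.36, with low salt replicate 2 or 3 left out it was 0.93 or 0.76, after quantile normalization 0.27 and with array weights 0.04. A second, dim probe set of Fos ran from 5.99 to 6.24 on high salt and from 5.93 to 6.39 on low salt, below the lower quartile of every array (6.53 to 6.65).

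Fosl1 (Fra-1, a Fos family member that lacks the strong activation domain of Fos) was at 6.78, 6.91 and 6.85 on high salt, against 7.18, 6.73 and 7.00 on low salt. The diets overlapped, and all 6 values lay close to the lower quartile of their arrays. The difference was -0.12 ± 0.14 (SE), and it was -0.25 after median centring. Leaving out low salt replicate 1 gave -0.02 and leaving out replicate 2 gave -0.24.

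The Jun family gave the least uniform picture. Junb, which pairs with Fos proteins and tempers the activity of Jun at some genes, was at 10.05, 9.60 and 9.73 on high salt, against 8.66, 8.36 and 9.26 on low salt. Every high salt array lay above every low salt array, and low salt replicate 2 was the lowest of the 6. Junb averaged 9.79 ± 0.23 on high salt and 8.76 ± 0.46 on low salt (SD, n = 3 each), a fold of 2.05. The exact two-sided permutation test over the 20 divisions of the arrays gave p = 0.1, the smallest it can give with 3 against 3 arrays, and the limma adjusted p was 0.803. Of the 14 settings of the fit, only median centring and quantile normalization could bring separated arrays to overlap. The others keep the same values or leave an array out. The arrays of Junb stayed apart under both scalings, and its difference ran from 0.80 to 1.38 over the settings.

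Jun, the main AP-1 subunit with transforming activity, had 3 probe sets that did not give the same difference. The brightest was at 10.96, 11.03 and 11.14 on high salt, against 10.65, 11.14 and 11.07 on low salt, a difference of 0.09 ± 0.16 (SE), and its diets overlapped. Median centring turned its sign (-0.04), as did quantile normalization (-0.14). The second in brightness was at 10.52, 10.56 and 10.27 on high salt, against 8.60, 8.64 and 9.74 on low salt. Here every high salt array lay above every low salt array, and the difference was 1.46 ± 0.33 (SE), with a limma adjusted p of 0.803. The dimmest was at 7.82, 7.98 and 8.19 on high salt, against 7.48, 6.64 and 7.47 on low salt, again with no overlap and a difference of 0.80 ± 0.26 (SE). The platform annotation gives these 2 dimmer probe sets the same source sequence and the brightest another. The 95% interval of the brightest ran from -0.30 to 0.47 and that of the second from 0.65 to 2.27, so that these intervals did not meet; a test of the difference between probe sets was not made. Over the mean of its 3 probe sets Jun differed by 0.78.

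Jund, a Jun family member that is usually present without a stimulus, was at 5.69, 5.63 and 5.57 on high salt, against 5.84, 5.58 and 5.59 on low salt. Its second probe set ran from 5.47 to 5.63 on high salt and from 5.52 to 5.85 on low salt. Both lay below the lower quartile of every array, and the diets overlapped on both, with differences of -0.04 ± 0.11 and -0.11 ± 0.13 (SE).

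Atf3, a stress-induced factor of the ATF family that often represses its targets, was at 9.55, 9.70 and 9.37 on high salt, against 9.71, 9.93 and 9.71 on low salt. The 2 groups did not overlap, though high salt replicate 2 (9.70) almost reached low salt replicates 1 and 3 (9.71 each). Atf3 averaged 9.54 ± 0.16 on high salt and 9.79 ± 0.13 on low salt (SD, n = 3 each), and the limma adjusted p was 0.803. The difference of -0.25 became -0.38 after median centring, -0.48 after quantile normalization and -0.17 without high salt replicate 3.

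**Figure D2:**
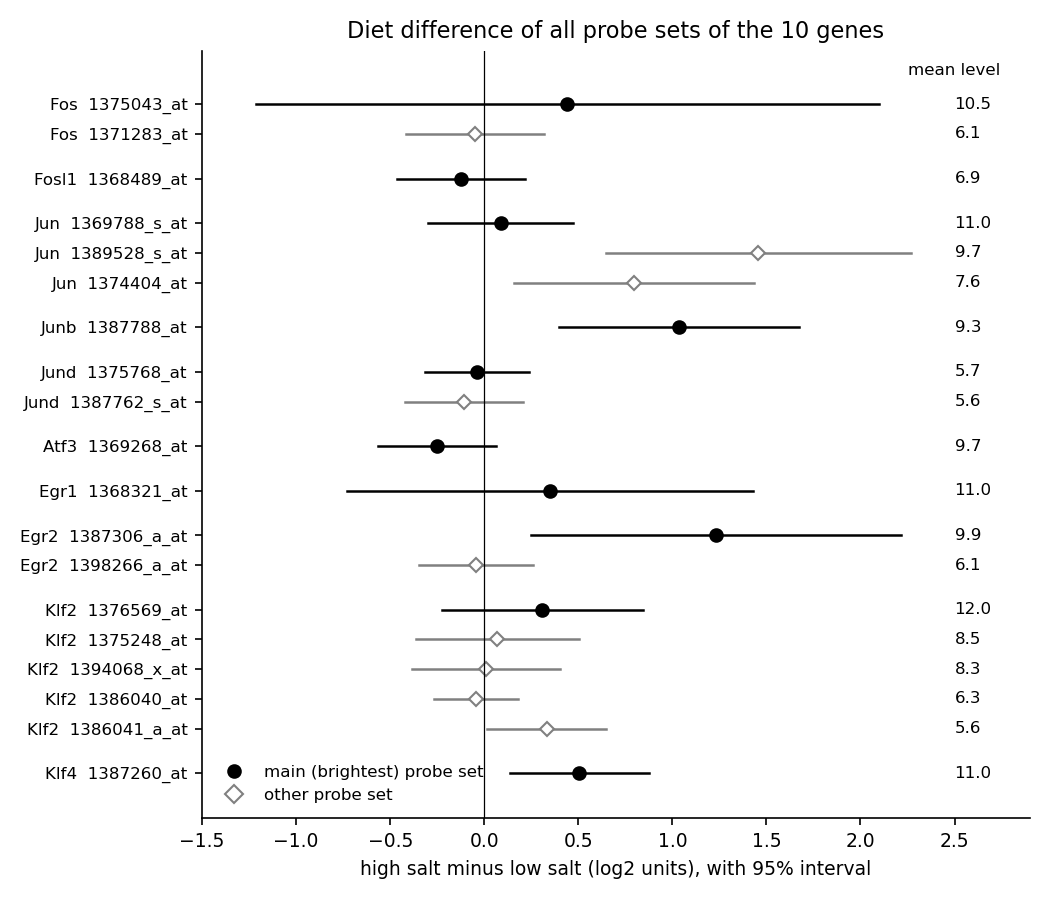
High salt minus low salt difference (x axis, log2 units) with its 95% interval for all 19 probe sets of the 10 genes, with the main probe set of a gene as a filled circle and the others as open diamonds; the mean level over 6 arrays is printed at the right. The brightest Jun probe set lies at 0.09 and the other Jun probe sets at 1.46 and 0.80, and the second probe sets of Fos and Egr2, at a mean level of 6.1 each, lie close to 0.

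Egr1, the zinc finger factor induced through serum response elements by growth factors and stretch, was at 11.35, 10.79 and 11.33 on high salt, against 9.92, 11.60 and 10.90 on low salt. Low salt replicate 1 was the lowest of the 6 arrays and low salt replicate 2 the highest, so that the high salt arrays lay within the range of the low salt arrays. Egr1 averaged 11.2 ± 0.32 on high salt and 10.8 ± 0.85 on low salt (SD, n = 3 each), a difference of 0.35 ± 0.44 (SE) with a 95% interval from -0.73 to 1.43. Leaving out low salt replicate 1 gave -0.10, and leaving out low salt replicate 2 gave 0.75. It was 0.53 when high salt replicate 2 was dropped, and the scalings gave 0.22 (median) and 0.14 (quantile).

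Egr2 (Krox20), known for its part in myelination by Schwann cells and also induced as an early gene, was at 10.64, 10.32 and 10.61 on high salt, against 8.39, 9.57 and 9.91 on low salt. All high salt arrays lay above all low salt arrays, and low salt replicate 1 was again far below the rest. Egr2 averaged 10.5 ± 0.18 on high salt and 9.29 ± 0.80 on low salt (SD, n = 3 each), a fold of 2.35 with a 95% interval of the log2 difference from 0.25 to 2.22. The exact permutation test gave p = 0.1, the smallest possible, and the limma adjusted p was 0.803. The arrays stayed apart in all 14 settings, and the difference was 0.78 without low salt replicate 1. The second probe set of Egr2, below the lower quartile of every array, ran from 5.996 to 6.131 on high salt and from 5.994 to 6.324 on low salt.

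Klf2 (lung Krüppel-like factor, the shear-induced factor of endothelium) was at 12.55, 11.82 and 12.05 on its main probe set on high salt, against 11.84, 11.62 and 12.02 on low salt. The diets overlapped, and high salt replicate 1 was the highest array. The difference was 0.31 ± 0.22 (SE), and it was 0.10 when high salt replicate 1 was dropped and 0.47 when high salt replicate 2 was. Without low salt replicate 2 it was 0.21, and the scalings gave 0.18 (median) and 0.14 (quantile). Of the 4 other Klf2 probe sets, 3 differed by -0.04 to 0.07 with overlap. The dimmest, with a mean level of 5.6, ran from 5.72 to 5.80 on high salt and from 5.21 to 5.61 on low salt.

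Klf4, a factor of endothelium and of dedifferentiating smooth muscle, was at 11.41, 11.02 and 11.31 on high salt, against 10.60, 10.94 and 10.69 on low salt. No array overlapped, and high salt replicate 2 (11.02) and low salt replicate 2 (10.94) were the nearest pair. Klf4 averaged 11.2 ± 0.20 on high salt and 10.7 ± 0.17 on low salt (SD, n = 3 each), a fold of 1.42. The exact permutation test gave p = 0.1, the smallest possible, and the limma adjusted p was 0.803. The diets stayed apart after median centring. After quantile normalization they overlapped and the difference was 0.29.

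The low salt arrays differed among themselves in ways that the 10 genes did not share. Fos and Egr1 were lowest on low salt replicate 1 and highest of all 6 arrays on low salt replicate 2. Junb was lowest on low salt replicate 2, and Klf4 lowest on low salt replicate 1. Low salt replicate 1 stood apart over the whole array too. Its correlation over probe sets was 0.926 to 0.945 with the high salt arrays, against 0.976 to 0.988 for low salt replicates 2 and 3. Among the low salt arrays it correlated at 0.919 with replicate 2 and 0.967 with replicate 3, and those replicates at 0.968 with each other. The high salt arrays correlated at 0.980 to 0.987 among themselves. The median value of low salt replicate 1 was 7.96, against 8.07 for low salt replicates 2 and 3 and 8.15 to 8.17 for the high salt arrays. The median difference of the 10 genes was 0.33, and it was 0.01 without low salt replicate 1.

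**Figure D3:**
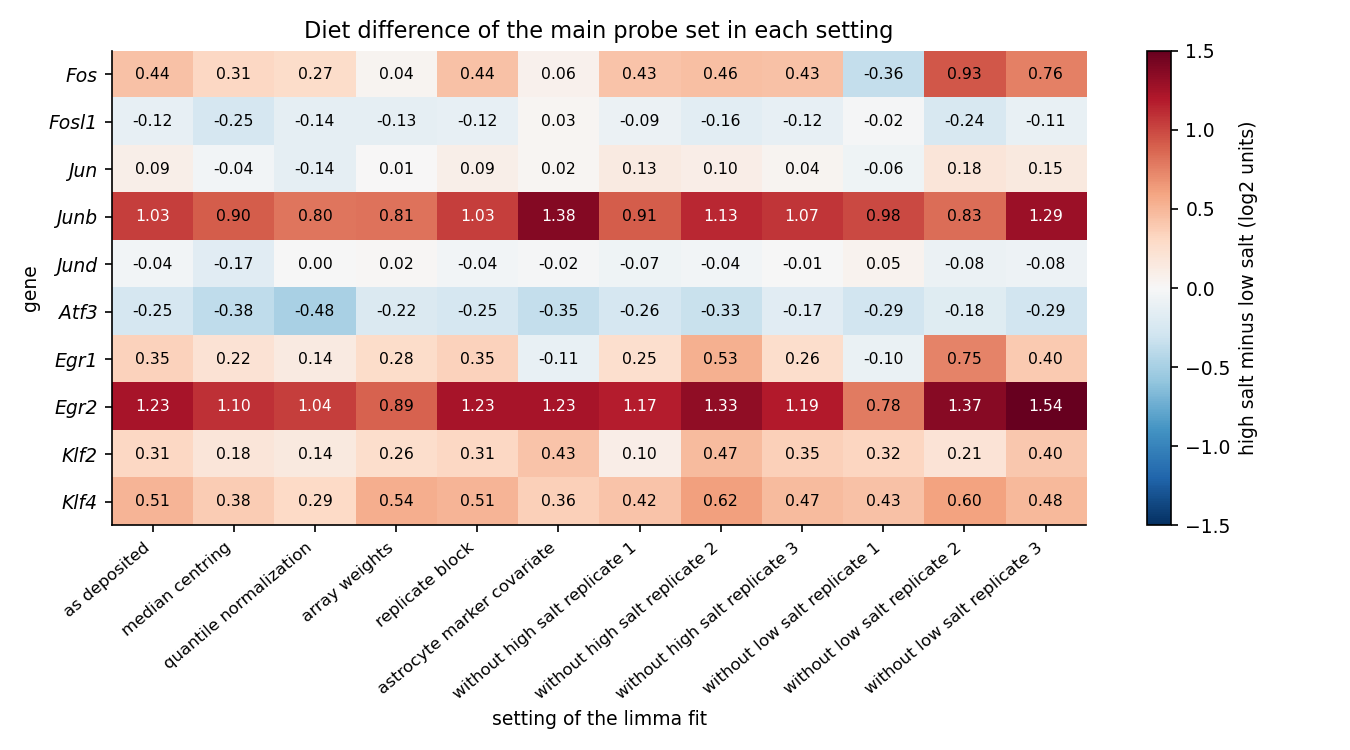
High salt minus low salt difference (colour and printed value, log2 units) of the main probe set of each gene (rows) in settings of the limma fit (columns), from the deposited values at the left to fits with 1 array left out at the right. Junb, Egr2 and Klf4 are above 0 and Atf3 below 0 in each column, while Fos and Egr1 turn sign without low salt replicate 1.

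The median of all 10411 genes was itself 0.07 above 0, and it went with brightness, at -0.04 in the dimmest quintile of genes and 0.26 in the brightest. After median centring it was -0.06, and then 4457 genes were higher and 5954 lower, against 6250 higher and 4161 lower in the deposited values. Of the 10 genes, 7 were higher and 3 lower as deposited, and 6 higher and 4 lower after median centring. The median of the 10 was 0.33 as deposited against 0.07 for all genes, 0.20 after centring against -0.06, and 0.14 after quantile normalization against -0.02.

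Genes that act with these factors were described from lists of related genes, each by its main probe set. Counts at an unadjusted p below 0.05 in these lists stand beside 5.72% of all genes higher and 0.711% lower, as deposited. Counts with no overlap stand beside 8.64% higher and 3.32% lower. Of 28 other immediate early genes measured, 20 were higher and 8 lower, with a median of 0.19, against 60.0% of all genes higher and a median of 0.07, and 0 passed the adjusted threshold. Median centring left 16 higher and 12 lower (median 0.06), and quantile normalization 14 higher and 14 lower (median 0.01). The median was 0.07 without low salt replicate 1. At an unadjusted p below 0.05 there were 3 of 28 higher, against 5.72% of all genes, and 0 lower, against 0.711%. These 3 were the MAP kinase phosphatases Dusp1, Dusp5 and Dusp6, feedback inhibitors of the kinases that induce Fos and Egr1. Dusp1 was at 12.36, 12.28 and 12.28 on high salt, against 10.96, 11.84 and 11.92 on low salt. Dusp6 was at 10.50, 10.19 and 9.96 on high salt, against 9.45, 9.60 and 9.62 on low salt. Dusp5 was at 8.27, 8.09 and 8.14 on high salt, against 7.66, 7.79 and 7.84 on low salt. No array overlapped for these 3 genes, whose differences were 0.73 ± 0.27 for Dusp1, 0.66 ± 0.16 for Dusp6 and 0.40 ± 0.10 for Dusp5 (SE), each with a limma adjusted p of 0.803. Dusp1 was at 0.43 without low salt replicate 1, and Dusp6 at 0.43 after quantile normalization. A second probe set gave 0.10 ± 0.12 for Dusp1, and the others of Dusp6 gave 0.87 ± 0.39 and -0.00783 ± 0.33. Dusp2, of the same family and also on this list, differed by -0.0054 ± 0.086 (SE) with overlap.

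Ier3, an early gene linked to cell survival, differed by 0.77 ± 0.36 with overlap, and by 1.16 without low salt replicate 2. Zfp36l1, an RNA-binding protein that promotes decay of short-lived messages, differed by 0.02 ± 0.12, and its sign turned after both scalings. Fosb, singled out after its values were seen because it is the closest relative of Fos, was at 8.38, 8.44 and 7.79 on high salt, against 7.83, 8.80 and 8.57 on low salt. These overlapped, with low salt replicate 2 the highest, as for Fos.

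Among 12 other AP-1 and related leucine zipper genes, 8 were higher and 4 lower, with a median of 0.26. Without high salt replicate 1 these were 6 and 6 with a median of 0.06, without high salt replicate 2 the median was 0.15 and without low salt replicate 2 it was 0.09, and the scalings gave 0.12 (median) and 0.09 (quantile). Atf4, the effector of the integrated stress response, was the 1 gene with an unadjusted p below 0.05 and with no overlap. It was at 11.53, 11.33 and 11.55 on high salt, against 9.998, 10.67 and 11.06 on low salt, a difference of 0.90 ± 0.28 (SE, limma adjusted p = 0.803). The small Maf proteins Mafg and Mafk differed by 0.42 ± 0.22 and 0.51 ± 0.42, and Cebpd by 0.40 ± 0.23. Without high salt replicate 1 Mafg was at 0.19 and Mafk at 0.24, and Mafk ran from there to 0.87 with other arrays left out. Cebpd was at 0.26 without high salt replicate 2 and 0.24 without low salt replicate 2. Its other probe sets, with mean levels of 6.65 and 5.86, gave 0.15 ± 0.15 and 0.0047 ± 0.13. The other Egr genes and the corepressors that bind Egr proteins, 4 genes in all, had a median of -0.03, with Egr3 at -0.18 ± 0.22, Egr4 at -0.07 ± 0.11, Nab1 at 0.12 ± 0.13 and Nab2 at 0.01 ± 0.29. These 4 lay near 0, and with 1 array left out their median ran from -0.15 (without low salt replicate 2) to 0.05 (without low salt replicate 1). Of 8 other Klf genes 6 were higher, with a median of 0.24 and 0 at an unadjusted p below 0.05. The median was 0.12 with low salt replicate 1 left out and 0.40 with replicate 2 left out, and after quantile normalization 4 were higher and 4 lower (median 0.04). Klf6 differed by 0.72 ± 0.57 and Klf10 by 0.71 ± 0.47. Leaving out low salt replicate 1 gave 0.25 for Klf6 and 0.27 for Klf10, and leaving out low salt replicate 2 gave 1.24 and 1.13. Klf15 differed by 0.39 ± 0.32, Klf16 by 0.21 ± 0.18 and Klf9, a glucocorticoid-induced gene, by -0.25 ± 0.33. Klf15 was at 0.06 with low salt replicate 1 left out and 0.65 with replicate 2 left out. Klf16 was at 0.10 without high salt replicate 1 and 0.38 without high salt replicate 2, and Klf9 at 0.07 and -0.59 without low salt replicates 1 and 2.

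**Figure D4:**
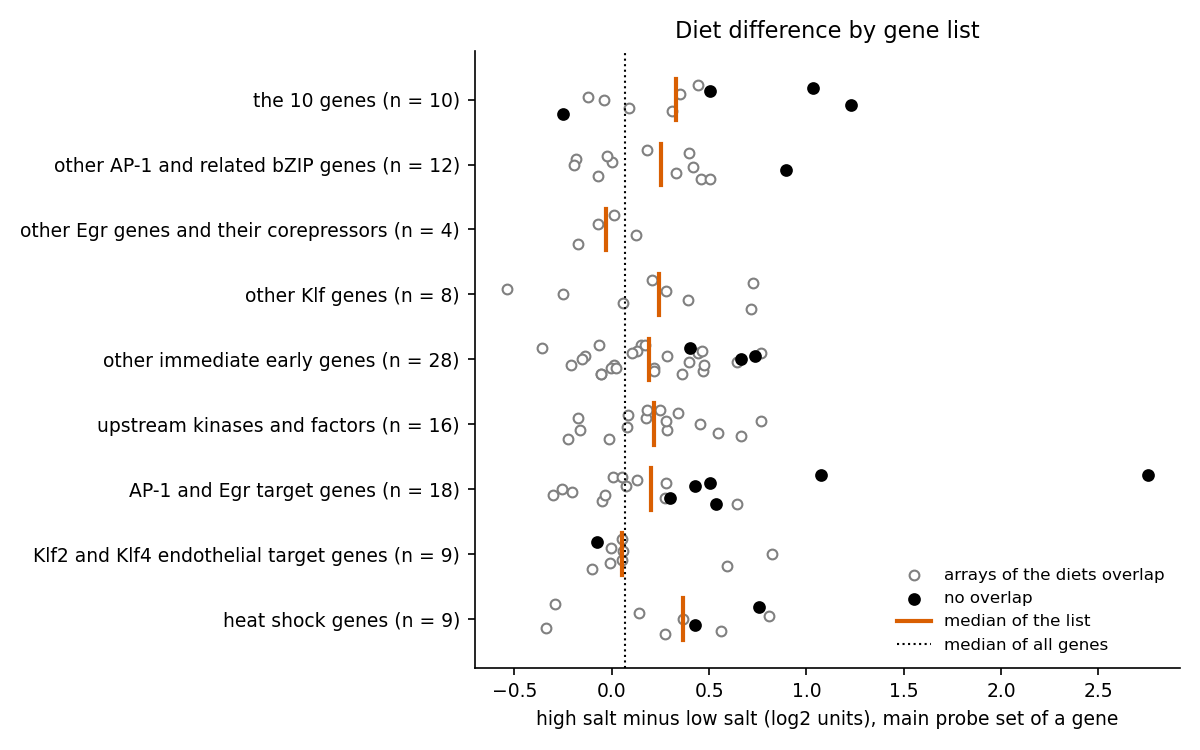
High salt minus low salt difference (x axis, log2 units) of the main probe set of each gene, by gene list (rows), with filled points where the arrays of the diets do not overlap, the median of each list in orange and the median of all genes as a dotted line at 0.07. The medians run from -0.03 for the other Egr genes and corepressors to 0.37 for heat shock genes.

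Of 16 upstream kinases and factors, 12 were higher and 4 lower, with a median of 0.21. Median centring left 10 higher and 6 lower (median 0.08), and quantile normalization 9 and 7 (median 0.06). Leaving out low salt replicate 1 also left 9 and 7 (median 0.04). Elk4, a partner of serum response factor at the CArG box, differed by 0.76 ± 0.28 and was the 1 gene with an unadjusted p below 0.05, although its arrays overlapped. Mapk14 (p38) differed by 0.66 ± 0.35, Map2k5, the kinase above Mapk7 in the route to Klf2, by 0.45 ± 0.21, Map2k2 by 0.34 ± 0.18 and Mef2c by 0.17 ± 0.43. Without low salt replicate 1 Mapk14 was at 0.27, Map2k5 at 0.29 and Mef2c at -0.27, and without high salt replicate 1 Map2k2 was at 0.21.

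Of 18 genes known as targets of AP-1 or Egr1, 13 were higher and 5 lower, with a median of 0.20. No overlap held for 6 on the higher side and 0 on the lower, against 8.64% and 3.32% of all genes. Only 10 of the 18 had a mean level above the 40th percentile of all probe sets. Of these 10, 9 were higher and 1 lower (median 0.36), against 5101 of 7229 genes higher and a median of 0.18. After median centring the list had 10 higher and 8 lower (median 0.07). No overlap then held for 4 of 18 on the higher side, against 4.01% of all genes, and 3 of 18 on the lower, against 13.9%. After quantile normalization the median was 0.06. No overlap then held for 3 of 18 on the higher side, against 4.74%, and 1 of 18 on the lower, against 7.66%. Among the 6 were osteopontin (Spp1, 2.75 ± 0.55), tissue factor (F3, 1.08 ± 0.40), cyclin D1 (Ccnd1, 0.50 ± 0.13) and heme oxygenase 1 (Hmox1, 0.43 ± 0.11). F3 was at 10.002, 10 and 10.075 on high salt, against 8.03, 9.63 and 9.20 on low salt, and its difference was 0.61 without low salt replicate 1. Ccnd1 stood at 0.26 and Hmox1 at 0.28 after quantile normalization. The other probe sets of Ccnd1, with mean levels of 8.84 and 8.17, gave 0.26 ± 0.19 and 0.16 ± 0.27 (SE), with overlap. Timp1 differed by 0.27 ± 0.27, and by 0.51 and -0.00243 without low salt replicates 1 and 2. None of these had an adjusted p below 0.05 (limma, 0 of 18). At an unadjusted p below 0.05 there were 4 of 18 higher, against 5.72% of all genes, and 0 lower, against 0.711%. Spp1 is a matricellular gene, and the series title names that class as overexpressed, so that its place in the list is not independent of these samples.

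Of 9 endothelial genes that depend on Klf2 or Klf4, 5 were higher and 4 lower, with a median of 0.05, close to the 0.07 of all genes. After median centring 2 were higher and 7 lower (median -0.08). The list holds both genes that these factors raise and genes that they restrain, so these counts and medians do not show a response of the targets in either direction. Thrombomodulin (Thbd), which Klf2 raises, differed by 0.82 ± 0.53 on its main probe set, and its other probe sets gave 0.06 ± 0.16 and -0.22 ± 0.09, the last with no overlap on the lower side. The main probe set gave 0.47 without low salt replicate 1, 1.35 without low salt replicate 2 and 0.51 without high salt replicate 2. Vcam1, which Klf2 restrains, differed by 0.59 ± 0.36, and by 0.22 and 0.91 without low salt replicates 1 and 2. Sele (-0.08 ± 0.08) and Nppc (0.06 ± 0.10) lay below the lower quartile of every array.

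Values that bear on the handling and the makeup of the samples were set beside the 10 genes. Of 9 heat shock genes 7 were higher, against 60.0% of all genes, with a median of 0.37. At an unadjusted p below 0.05 there was 1 of 9 higher, against 5.72% of all genes. It was Hmox1, which is also counted above among the targets of AP-1 or Egr1. Leaving out low salt replicate 1 left 5 higher with a median of 0.14, and quantile normalization gave a median of 0.15. Hspd1 differed by 0.76 ± 0.33, Hspa5 by 0.81 ± 0.43, Hspe1 by 0.37 ± 0.24 and the small heat shock protein Hspb1 by -0.34 ± 0.42, and without low salt replicate 1 Hspd1 was at 0.40, Hspa5 at 0.35 and Hspe1 at 0.14. Without low salt replicate 2 Hspa5 was at 1.21, and Hspb1 ran from -0.76 to -0.10 with 1 array left out. The mean of the heat shock list was 11.0 to 11.3 on high salt, against 10.3 on low salt replicate 1 and 11.1 and 11.2 on low salt replicates 2 and 3. The mean of the 8 of the 10 genes that lay above the median level was 10.6 to 10.9 on high salt, against 9.80, 10.55 and 10.56 on low salt replicates 1, 2 and 3. Both were lowest on low salt replicate 1, an array whose values spanned less as a whole. Its upper quartile was 9.22, against 9.50 to 9.71 on the other arrays, and its lower quartile 6.65, against 6.53 to 6.60. The mean of the hybridization controls was highest on it, at 10.79 against 9.11 to 10.49. The 3' minus 5' difference of the beta-actin control probe sets, which grows as RNA breaks down or amplification shortens it, was 3.31 to 3.89 on high salt and 3.16 to 3.56 on low salt. That of the Gapdh control was 1.94 to 2.69 on high salt and 2.44 to 3.30 on low salt, highest on low salt replicate 1. The part of freezing, preservative and time after death in these values was not tested.

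The arterial wall showed in its smooth muscle markers, with Myh11 at 13.1 to 13.7 and Tagln at 13.3 to 13.9 over the 6 arrays, above the upper quartile of every array. The mean of 8 smooth muscle markers was 11.3 to 11.5 on high salt, against 12.0, 11.1 and 12.0 on low salt replicates 1, 2 and 3, and 8 of 8 were lower on high salt. Without low salt replicate 3 these were 4 of 8, and with the astrocyte mean as a covariate 2 of 8. The mean of 10 astrocyte markers was 10.2 to 10.6 on high salt, against 9.22, 10.55 and 8.55 on low salt replicates 1, 2 and 3, and 9 of 10 were higher on high salt. The water channel Aqp4, a defining marker of astrocyte endfeet, was picked as an example. Its main probe set was at 9.58, 9.23 and 9.66 on high salt, against 6.26, 10.47 and 5.02 on low salt. The other Aqp4 probe sets, with mean levels of 7.5 and 5.4, gave differences of 0.10 ± 0.14 and -0.11 ± 0.16 (SE), with overlap. For macrophages and microglia the mean of 7 markers was 9.14 to 9.46 on high salt and 8.39 to 9.18 on low salt, and 6 of 7 were higher on high salt. The mean of 3 red blood cell markers was 10.46 to 11.18 on high salt and 10.03 to 10.22 on low salt, and 3 of 3 were higher on high salt. Of endothelial markers 5 of 6 were higher on high salt, of pericyte markers 2 of 6, of fibroblast and meninges markers 4 of 6, of neuron markers 2 of 7 and of oligodendrocyte markers 3 of 5. Of all genes 60.0% were higher. After quantile normalization these 5 counts were 3, 1, 2, 2 and 3 in the same order, against 46.3% of all genes.

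On low salt replicate 2, whose astrocyte mean lay within the range of the high salt arrays, Fos (11.24) and Egr1 (11.60) lay above all 3 high salt arrays. Junb (8.36), Egr2 (9.57) and Klf4 (10.94) lay below them there, as on each low salt array. With the astrocyte mean as a covariate, a fit chosen after seeing the data, the differences were 1.38 for Junb, 1.23 for Egr2, 0.36 for Klf4, -0.35 for Atf3, 0.06 for Fos and -0.11 for Egr1, and the median of the 10 was 0.05. The limma adjusted p was 0.9999 for each of these 6. The part of astrocytes and of the other cell types in the results was not tested.

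**Figure D5:**
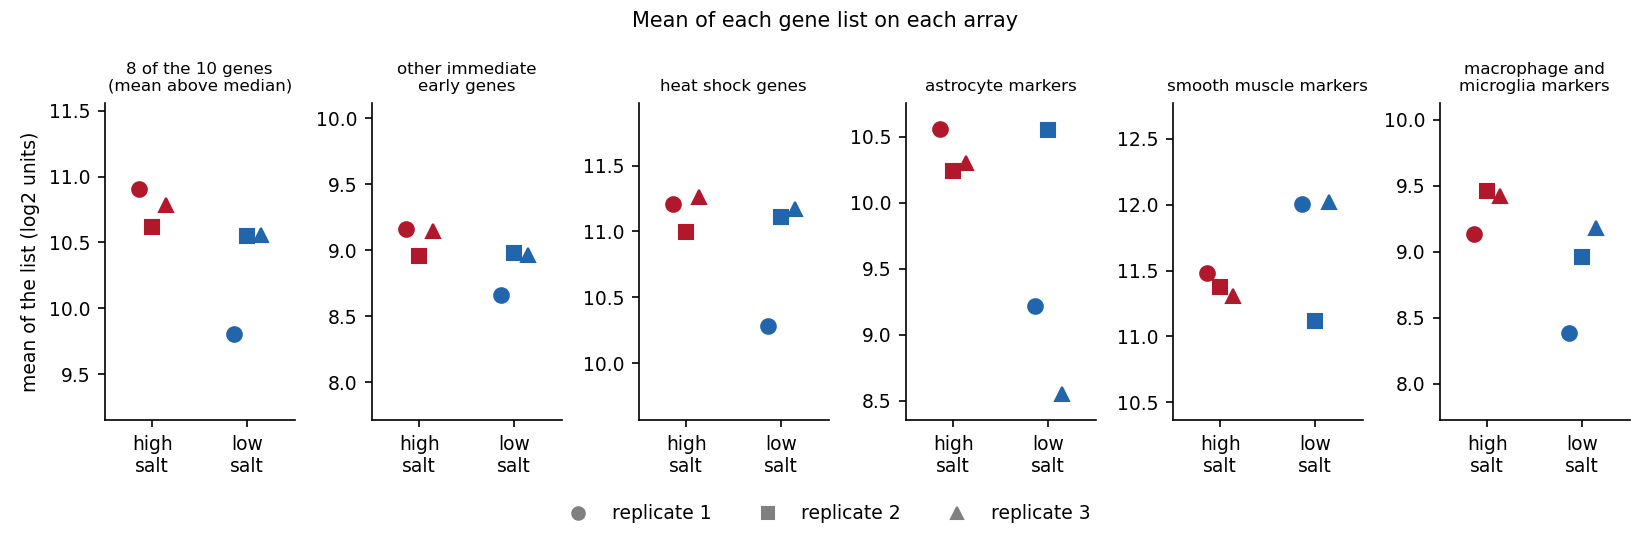
Mean log2 value (y axis, log2 units) of 6 gene lists on the 3 high salt arrays (red) and the 3 low salt arrays (blue), marked by replicate; every panel spans the same number of log2 units. Low salt replicate 1 is lowest for the early genes and the heat shock genes, while for astrocyte markers low salt replicate 2, at 10.55, lies in the range of the high salt arrays.

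The gene of the 10 with the widest spread over the 6 arrays was Fos (SD 0.92). By the smallest root mean square difference between profiles over 6 arrays, each centred on its own mean, the genes most like Fos among those above the median level were Dnajb9 (0.15), Lypla1 (0.19), Ggnbp2 (0.19), Ogt (0.19) and Acsl1 (0.21). Dnajb9, a chaperone of the endoplasmic reticulum, was at 10.08, 9.96 and 10.15 on high salt, against 7.85, 10.63 and 9.88 on low salt. In all of these 5 genes low salt replicate 1 was the lowest array and low salt replicate 2 the highest. They were chosen to match Fos, which has this order, so the order is no separate result.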

How the data were processed

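RNA was amplified in 2 cycles and hybridised to 1 array per pool, per the labels' protocols. The deposited log2 values, 1 per probe set and array, were made by the authors with RMA (tool named per the submitters' processing notes, version not stated in the sources used here). Base 2 is read from RMA and the range of the values. Of 15923 rows 57 control probe sets were left out. Genes came from GEO's platform annotation: 12783 probe sets had 1 symbol, 312 several and 2771 none, and 12748 matched RefSeq by Entrez identifier.

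Diets were compared with limma 3.58.1 in R 4.3.3 (lmFit and eBayes, 3 arrays against 3, no block), with Benjamini-Hochberg adjustment over 15866 probe sets. SEs are moderated. The fit was tested on simulated data. The members and lists were chosen with earlier results of these data known. Named genes are the 10, and per list the 4 of lowest p and the brightest, except where said. Dusp2 and the cell type markers Myh11, Tagln and Aqp4 were picked outside this rule. Not all named genes are described. The number of arrays limits the precision. Alternatives were centring on medians, normalizing by quantiles, dropping probe sets under the 40th percentile, trended and robust variances, array weights, a replicate block, each array left out, other probe sets and, chosen after seeing the data, an astrocyte covariate.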

Additional observations from a re-analysis of the deposited data

How the results depend on the processing

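In every alternative 0 of the 10 genes passed the adjusted threshold. At an unadjusted p below 0.05 there were 3 of 10 on the higher side as deposited, against 5.72% of all genes, and 1 to 3 over the alternatives. The count over all genes moved too. Without high salt replicate 1 it was 1 of 10 beside 238 of 10411 genes, and without low salt replicate 2 it was 3 of 10 beside 1591. On the lower side there was 1 under median centring and 1 under quantile normalization (Atf3), beside 265 and 270 genes. Without low salt replicate 1 there was 1 (Fos), beside 67 genes. It was 0 otherwise, beside 30 to 490 genes. The lowest adjusted p of any of the 10 was 0.214, for Klf4 without low salt replicate 2. On the lower side 2 of 10 had no overlap after quantile normalization, against 7.66% of all genes. Without low salt replicate 1 it was 2 of 10, against 502 of 10411 genes, and without low salt replicate 2 it was 2 of 10, against 1668. With any other array left out it was 1 of 10, against 498 to 793 genes. Leaving out an array cannot lower such counts. Replicate numbers did not pair the samples: deviations of equal numbers correlated at 0.04, -0.27 and 0.04, and with the number as a block (replicate block) Junb stayed at 1.03 (limma adjusted p = 0.893), with 0 calls. Signs turned as follows. Median centring gave -0.0427 for Jun, -0.00863 for Nab1, -0.12 for Nab2, -0.11 for Zfp36l1 and -0.0716 for Nppc. Quantile normalization gave -0.14 for Jun, -0.21 for Nab2, -0.0301 for Klf16, -0.11 for Zfp36l1 and -0.0347 for Mef2c. Array weights gave 0.0163 for Jund, -0.00690 for Zfp36l1 and -0.0806 for Mef2c. The astrocyte covariate gave 0.0298 for Fosl1, -0.11 for Egr1, 0.0691 for Egr3, 0.16 for Klf9 and 0.23 for Hspb1. Another probe set gave -0.0503 for Fos, -0.0441 for Egr2, -0.0432 for Klf2, -0.0319 for Mafg, 0.10 for Egr4 (0.0128 for its mean), 0.0436 for Klf9, -0.00783 for Dusp6 and -0.22 for Thbd. With 1 array left out the range was -0.36 to 0.93 for Fos, -0.0636 to 0.18 for Jun, -0.0849 to 0.0471 for Jund, -0.10 to 0.75 for Egr1, -0.24 to 0.18 for Nab2, -0.59 to 0.0700 for Klf9, -0.0767 to 0.0758 for Zfp36l1, -0.27 to 0.42 for Mef2c and -0.00243 to 0.51 for Timp1. The cause was not tested.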
